A study of Mus musculus with 6 samples.

Results

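Troponin is the 3-subunit switch that lets calcium turn muscle contraction on, and the genes described here are the 7 that encode its slow, fast and cardiac subunit isoforms in the mouse apart from cardiac troponin I. They were taken by gene symbol (Tnnc1, Tnnc2, Tnni1, Tnni2, Tnnt1, Tnnt2 and Tnnt3) from the 21572 symbols of the deposited expression tables, and all 7 had 1 entry each. The samples were soleus muscles of adult C57BL/6 mice, a hindlimb muscle built of slow and fast oxidative fibres, sequenced as polyadenylated RNA in 6 libraries. The comparison was meant to find genes controlled by Dach2 and Hdac9, a nuclear cofactor and a class IIa histone deacetylase, after loss of the nerve. The 3 groups held 2 libraries each: wild-type (WT) soleus with its nerve intact, WT soleus 3 days after denervation, and soleus of Dach2-/-/Hdac9-/- mice 3 days after denervation, called DKO-labelled below. An innervated DKO-labelled group was not analysed here, so a genotype difference in innervated muscle cannot be told apart from one that appears with denervation. The labels call the genotype a deletion without giving the deleted parts, and they do not give the number of animals. The p-values therefore set a difference between groups against how far libraries of a group lie apart, which may be a technical spread.

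On the thin filament, troponin C binds calcium, troponin I holds actin and myosin apart at rest, and troponin T ties the complex to tropomyosin. Slow fibres use Tnni1 and Tnnt1 together with Tnnc1, which the heart shares. Fast fibres use Tnnc2, Tnni2 and Tnnt3. Tnnt2 encodes cardiac troponin T, which embryonic and regenerating skeletal muscle also makes before the adult isoforms replace it. Cardiac troponin I, Tnni3, is the remaining member of the family.

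Marker genes of both slow and fast fibres were found, which does not tell soleus from other muscles with both fibre types. The summed level of 6 slow fibre markers (such as Myh7, Myl2 and Myl3) was 12778.5 to 17403.2 FPKM in the innervated WT pair, 3978.2 to 4303.4 in denervated WT and 3004.2 to 3584.3 in the DKO-labelled group. FPKM is a level of fragments scaled by transcript length and by a library factor, so that genes can be compared. The 8 fast fibre markers (such as Myh2, Mylpf and Atp2a1) summed to 12943 to 13863, 6067.5 to 8271 and 5266.5 to 6793.9 FPKM in the same order. Heart tissue was looked for with 7 markers, which summed to at most 151.7 FPKM in any library, almost all of it from Myh6 and Myl4. The atrial light chain Myl7 was listed at 0 in all 6 libraries, and Nppa, Nppb and Mybpc3 were at most at 0.27 FPKM in any. Libraries held 25529434 to 46305449 fragments. Dach2 lay at 3.85 and 4.29 FPKM in the innervated WT pair, at 0.519 and 0.536 in the denervated WT pair, and at 0.961 and 0.681 in the DKO-labelled libraries. Hdac9 lay at 4.1 and 3.14, at 1.83 and 0.285, and at 0.534 and 0.181. These are values over the whole gene, which do not check a deletion of part of it, and Dach2 was not lower in the DKO-labelled than in the denervated WT libraries.

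The 7 genes sit at 5 places in the genome (build mm9, starts and ends as the files give them, without a statement on whether starts count from 0). Tnnt2 (chr1:137732962-137748838) and Tnni1 (chr1:137695997-137707566) share a stretch of chromosome 1 with only Lad1 between them. Tnni2 (chr7:149628372-149630310) lies 16464 bases from the interval given for Tnnt3 (chr7:149646774-149701914) on chromosome 7. That interval is shared with Lsp1 and Gm14492, so the distance to Tnnt3 itself is not known. Tnnt1 (chr7:4456264-4467577) lies 2332 bases from Tnni3. Tnnc1 (chr14:32021497-32024897) and Tnnc2 (chr2:164602661-164605234) stand alone. The files give Tnnt3, Lsp1 and Gm14492 the same start and end, and the strand setting of the counting is not given in the sources used here, so reads of these 3 genes may have been split among them. Lsp1 was at 8.17 to 33.4 FPKM and Gm14492 at 10.6 to 48.9, against 3033.1 to 8196.8 for Tnnt3.

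Promoters of 5 of the 7 genes were listed in the RefSeq table (build GRCm38.p6), which covers 250 bases before to 50 after each start. Tnni2 and Tnnt3 had no entry. The bases before the start are shown for 3 genes. These are Tnnt2, the member that rose with denervation, and Tnnc1, the member with the lowest fold change. The last is Tnni1, whose locus is next to that of Tnnt2 and whose change did not pass the test. All 3 have a match to a motif marked below, and no gene of the fast set is among them. Each is the first entry of its gene, 5′ to 3′ on the gene's strand, at chr1:135836084-135836333 (plus strand), chr14:31208062-31208311 (plus strand) and chr1:135799171-135799420 (plus strand). Capitals mark matches to CAGCTG, an E-box of the kind that MyoD family factors bind, or to CATTCC, the MCAT motif bound by TEAD factors, on either strand.
Tnnt2: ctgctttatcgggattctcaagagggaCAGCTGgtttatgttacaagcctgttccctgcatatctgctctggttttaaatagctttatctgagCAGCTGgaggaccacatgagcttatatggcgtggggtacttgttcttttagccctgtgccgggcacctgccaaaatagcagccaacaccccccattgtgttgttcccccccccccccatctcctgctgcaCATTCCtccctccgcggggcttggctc
Tnnc1: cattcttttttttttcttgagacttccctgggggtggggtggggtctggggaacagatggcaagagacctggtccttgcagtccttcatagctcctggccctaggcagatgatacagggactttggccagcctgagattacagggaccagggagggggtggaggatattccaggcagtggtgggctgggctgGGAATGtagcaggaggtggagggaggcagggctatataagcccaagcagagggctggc
Tnni1: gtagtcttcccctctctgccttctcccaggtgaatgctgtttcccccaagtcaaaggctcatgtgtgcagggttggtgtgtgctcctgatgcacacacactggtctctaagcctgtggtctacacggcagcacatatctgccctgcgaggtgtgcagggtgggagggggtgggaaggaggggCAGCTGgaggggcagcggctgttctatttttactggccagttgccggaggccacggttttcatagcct

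The Tnnt2 window held 2 CAGCTG matches, whose first bases lie at -223 and -157 from the start, and 1 CATTCC match at -27. In the Tnni1 window there was 1 CAGCTG match at -68, and in the Tnnc1 window 1 CATTCC match on the reverse strand at -58. Tnnt2 and Tnni1 each had a second start listed. The window of the second Tnnt2 start held neither CAGCTG nor CATTCC, and that of the second Tnni1 start held 1 CAGCTG match at -158. Neither motif was found in the windows of Tnnc2 and Tnnt1, and the Tnnt1 window held TATAAA at -30. Of the 32851 promoter windows in the table, 16.3% held CAGCTG, 14.7% held CATTCC and 13.6% held TATAAA. The looser E-box CANNTG, which includes CAGCTG, was in the windows of all 5 members and in 72.3% of all windows. No member window matched TCAGGTT, the MEF3 motif bound by sine oculis homeobox factors (4.07% of all windows), the MEF2 motif (3.19%) or the CArG box of serum response factor (1.63%). These matches are descriptions of letters, and binding was not measured.

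In innervated WT soleus the fast troponins were the most abundant members and cardiac troponin T by far the least. Mean levels ordered as Tnnc2 at 9223.7 ± 610.2 FPKM (SD, n = 2), Tnnt3 at 8178.9 ± 25.4, Tnni2 at 7049.6 ± 399.5, Tnnc1 at 3230.5 ± 1018.2, Tnnt1 at 3045 ± 503.2, Tnni1 at 1657.5 ± 474.8 and Tnnt2 at 17.3 ± 8. The ranges of the 2 libraries overlapped between Tnnc1 and Tnnt1, and did not overlap for the other neighbours in this order. Tnnc2, Tnni2 and Tnnt3 ranked between 2 and 10 among all 21572 symbols in every library. Tnnc1, Tnni1 and Tnnt1 ranked between 12 and 107, and Tnnt2 between 772 and 4390. Together the 7 genes took 2.86% and 3.02% of all fragments in the innervated WT libraries. That share was 1.82% and 1.81% in denervated WT and 1.5% and 1.56% in the DKO-labelled libraries, with no overlap between any of the groups.

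**Figure D1:**
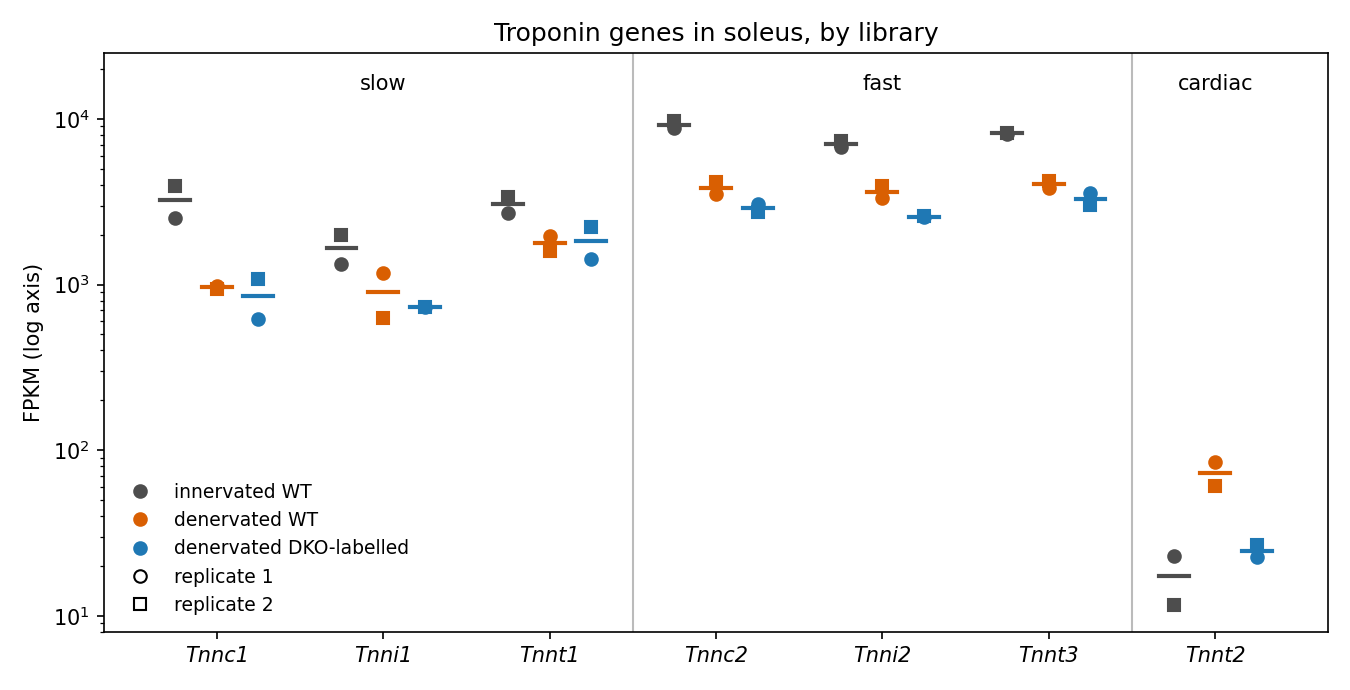
FPKM of the 7 troponin genes (log axis) in each library, grouped as slow, fast and cardiac isoforms; circles and squares are replicates 1 and 2 and bars are group means. Levels of the 6 slow and fast genes lay higher in both innervated WT libraries than in either denervated WT library. The share of all genes with these groups apart was not counted. Tnnt2 lay at 85 and 60.5 FPKM in denervated WT and at 26.6 or less elsewhere.

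Denervation of WT soleus was followed by lower RNA of 4 of the 7 troponin genes and higher RNA of 1. Tnnc1, Tnnc2, Tnni2 and Tnnt3 fell and Tnnt2 rose (edgeR's quasi-likelihood test, Benjamini-Hochberg adjusted p under 0.05), and Tnni1 and Tnnt1 did not pass the test. All 4 lower calls were lost under quantile normalization (limma), which sets the highest values of all libraries equal. There Tnnc1 was at -1.01 (limma adjusted p = 0.0521) and Tnnc2 at -0.22 (limma adjusted p = 0.0987). Lower levels of Tnni2 (0.0), Tnnt3 (0.06) and Tnnt1 (0.02) were no longer seen there. Among all 12247 genes tested, 14.3% were called lower and 14.4% higher (1753 and 1759 genes). With library totals as the only scaling, 1144 were called lower and 3331 higher, and the 5 called members were the same. These levels are relative to the other RNA of a library and are not amounts per muscle. Fewer fibres of a type and less RNA in each, among other causes of a lower level, cannot be told apart in bulk tissue. The 4 lower calls were lost when either innervated WT library was left out, and so were most calls over all genes. Without innervated WT replicate 2 the call of Tnnt2 was lost too.

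Of the calcium-binding subunits, slow and cardiac troponin C (Tnnc1) stood at 2510.5 and 3950.4 FPKM in the innervated WT pair, 986.2 and 934.1 in the denervated WT pair, and 619.6 and 1086.5 in the DKO-labelled libraries. Both innervated libraries lay above all 4 denervated ones, and the DKO-labelled pair spanned the denervated WT pair. The log2 fold change with denervation in WT was -1.67 ± 0.34 (SE, n = 2 per group), a 3.19-fold lower level, with an edgeR adjusted p of 0.0159. Fast troponin C (Tnnc2) was at 8792.2 and 9655.2, at 3523.6 and 4174.5, and at 3076.8 and 2739.9 FPKM in the 3 groups. No 2 groups overlapped. How many of all genes had their groups apart in this way was not counted, here or for the members below. The change in WT was -1.19 ± 0.20 on the log2 scale (edgeR adjusted p = 0.00916), against -0.22 under quantile normalization. As a plain log2 difference of FPKM it was -1.32 between the libraries numbered 14043 and 14044 and -1.21 between those numbered 14049 and 14050. The runs of consecutive sample numbers in the labels are not said to be batches. Values of genes within these runs are of FPKM below as well, and are not edgeR estimates.

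Of the inhibitory subunits, fast troponin I (Tnni2) was at 6767.1 and 7332.1 FPKM in the innervated WT pair, at 3352.6 and 3910.1 in the denervated WT pair, and at 2542.3 and 2596.4 in the DKO-labelled libraries. The 3 groups did not overlap. The edgeR change with denervation in WT was -0.87 ± 0.19 (adjusted p = 0.019). Slow troponin I (Tnni1) was at 1321.8 and 1993.2, at 1171.8 and 626.1, and at 733.6 and 727.5 FPKM. The denervated WT pair spanned the DKO-labelled pair, and its first library lay close to the lower innervated one. The change in WT was -0.80 ± 0.33 (edgeR adjusted p = 0.115), and it was -0.17 and -1.67 within the first and second run of sample numbers. Without denervated WT replicate 1 it was -1.32 and without denervated WT replicate 2 it was -0.42, so its size depended on the library. Cardiac troponin I (Tnni3) had 5 to 25 fragments per library, at 0.137 to 0.857 FPKM, and was below the level needed for testing.

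Of the tropomyosin-binding subunits, fast troponin T (Tnnt3) was at 8160.9 and 8196.8 FPKM in the innervated WT pair, 3852 and 4223.5 in the denervated WT pair, and 3547.9 and 3033.1 in the DKO-labelled libraries. All 3 groups were apart. Its change with denervation in WT was -0.93 ± 0.20 on the log2 scale (edgeR adjusted p = 0.0185). Slow troponin T (Tnnt1) was at 2689.1 and 3400.8, at 1956.9 and 1604.2, and at 1418.5 and 2223.8 FPKM. Both innervated libraries were above all denervated ones, and the DKO-labelled pair again spanned the denervated WT pair. The change in WT, -0.70 ± 0.27, did not pass the test (edgeR adjusted p = 0.1), while DESeq2 gave an adjusted p of 0.0471.

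Cardiac troponin T (Tnnt2) moved the other way. It was at 23 and 11.7 FPKM in the innervated WT pair, at 85 and 60.5 in the denervated WT pair, and at 22.6 and 26.6 in the DKO-labelled libraries, from 432 to 7688 fragments per library. Both denervated WT libraries lay above the other 4, and the DKO-labelled pair overlapped the innervated pair. The rise in WT was 2.16 ± 0.35 on the log2 scale, 4.48-fold (edgeR adjusted p = 0.0085), and it was 1.89 and 2.37 within the 2 runs of sample numbers. Without innervated WT replicate 2 the adjusted p was 0.0586 at a log2 change of 1.76. As a share of the FPKM of all 3 troponin T genes, the cardiac isoform made up 0.211% and 0.101% in the innervated WT pair, 1.44% and 1.03% in the denervated WT pair, and 0.453% and 0.503% in the DKO-labelled group. 

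**Figure D2:**
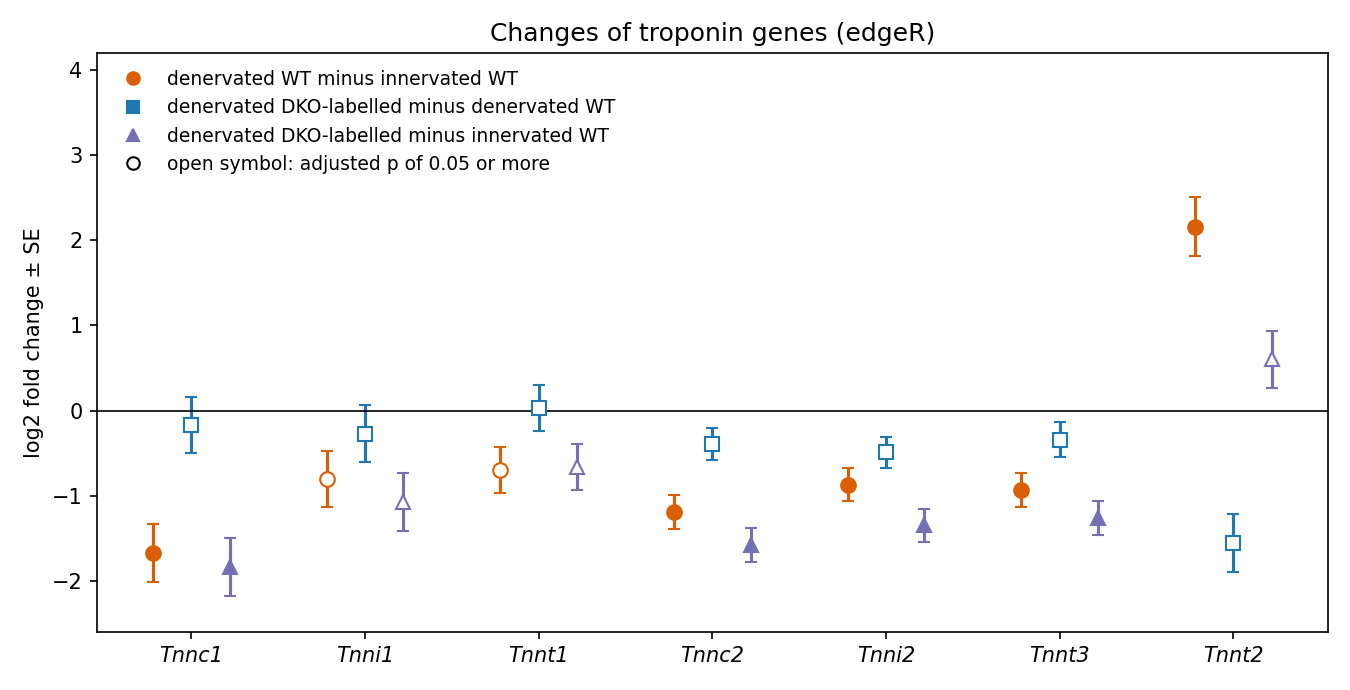
Log2 fold changes (± SE, edgeR) of the 7 genes in the 3 comparisons; filled symbols have an adjusted p under 0.05. Denervated WT against innervated WT gave -1.67 for Tnnc1 at the low end and 2.16 for Tnnt2, and DKO-labelled against denervated WT gave -1.56 for Tnnt2 and values between -0.49 and 0.03 for the rest; under quantile normalization the WT denervation values were -1.01 for Tnnc1, -0.22 for Tnnc2, 0.0 for Tnni2, 0.06 for Tnnt3 and 0.02 for Tnnt1.

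Between the genotypes after denervation, no troponin gene passed the test with edgeR. Of 12247 genes, 5 passed (0.0408%), and 748 had an unadjusted p under 0.05 (6.11%). The member with the lowest p was Tnnt2, which was lower by 1.56 ± 0.34 log2 units in the DKO-labelled libraries (-1.56, unadjusted p = 0.00301, adjusted p = 0.357, edgeR), and 102 genes had a smaller p. The difference was -1.91 and -1.19 within the 2 runs of sample numbers. DESeq2, which called 181 genes in all, gave an adjusted p of 0.00191 for Tnnt2. Over all 17 alternatives the log2 difference ranged from -1.78 to -1.3 and the adjusted p from 0.00191 to 0.984, and DESeq2 was the only alternative to call it.

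The fast isoforms were slightly lower in DKO-labelled muscle without passing the test. The log2 differences were -0.39 ± 0.19 for Tnnc2, -0.49 ± 0.18 for Tnni2 (unadjusted p = 0.0351, adjusted p = 0.761, edgeR) and -0.34 for Tnnt3. Both DKO-labelled libraries lay below both denervated WT libraries for these 3 genes and for Tnnt2. Of all tested genes, 29.8% had groups that did not overlap in this comparison, in either direction, and 15.2% had both DKO-labelled libraries lower. For the slow isoforms the differences were -0.17 ± 0.33 for Tnnc1, -0.27 ± 0.33 for Tnni1 and 0.03 ± 0.27 for Tnnt1, all within the overlap of the libraries.

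Against innervated WT, the denervated DKO-labelled libraries had lower RNA of Tnnc1, Tnnc2, Tnni2 and Tnnt3 (this comparison shares its innervated libraries with that of denervated WT). The log2 changes were -1.84 for Tnnc1 (edgeR adjusted p = 0.0104), -1.58 for Tnnc2 (0.00357), -1.35 for Tnni2 (0.00465) and -1.26 for Tnnt3 (0.00654). Lower calls made up 16.2% of all genes tested (1984 genes, with 1859 higher). With library totals as the only scaling, 1239 genes were called lower and 3729 higher. Tnnt3 was not called under quantile normalization, where its log2 difference was -0.01. Without innervated WT replicate 1 the call of Tnnt3 was lost, and without replicate 2 all but that of Tnnc2. Most calls over all genes were lost in these fits as well. Tnni1 was at the edge of the test, at -1.07 ± 0.34 with an adjusted p of 0.0522, and was called in 10 of the 17 alternatives. Tnnt1 at -0.66 (adjusted p = 0.11) was called in none of them, and its log2 value ranged from -1.03 to 0.17 over them. Tnnt2 was at 0.60 ± 0.34 (adjusted p = 0.211, edgeR), with -0.02 and 1.19 within the 2 runs.

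The balance of slow to fast isoforms did not move in 1 direction with denervation. The ratio of Tnnc1 to Tnnc2 was 0.286 and 0.409 in the innervated WT pair, 0.28 and 0.224 in the denervated WT pair, and 0.201 and 0.397 in the DKO-labelled libraries. For Tnni1 to Tnni2 it was 0.195 and 0.272, then 0.35 and 0.16, then 0.289 and 0.28. For Tnnt1 to Tnnt3 it was 0.33 and 0.415, then 0.508 and 0.38, then 0.4 and 0.733. Denervated WT was apart from innervated WT only for the troponin C ratio, which was lower by a log2 value of -0.45, and the other 2 ratios overlapped. With 2 libraries a side, the exact two-sided permutation test cannot give a p below 0.333.

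Summed over the 3 genes of each class, slow troponin FPKM was 6521.4 and 9344.5 in the innervated WT pair, 4114.9 and 3164.5 in the denervated WT pair, and 2771.7 and 4037.8 in the DKO-labelled libraries. Fast troponin FPKM was 23720.2 and 25184.2, 10728.2 and 12308.1, and 9167.1 and 8369.4. In WT the slow sum was 2.16-fold lower after denervation and the fast sum 2.13-fold lower, by the difference of mean log2 values. The slow to fast ratio of the sums was 0.275 and 0.371, then 0.384 and 0.257, then 0.302 and 0.482, a log2 difference of -0.02 between denervated and innervated WT with a pooled SD of 0.36. Within the first run of sample numbers this difference was 0.48 and within the second -0.53, so the sign was opposite between the runs. Between DKO-labelled and denervated WT it was 0.28, with -0.34 and 0.91 within the runs.

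**Figure D3:**
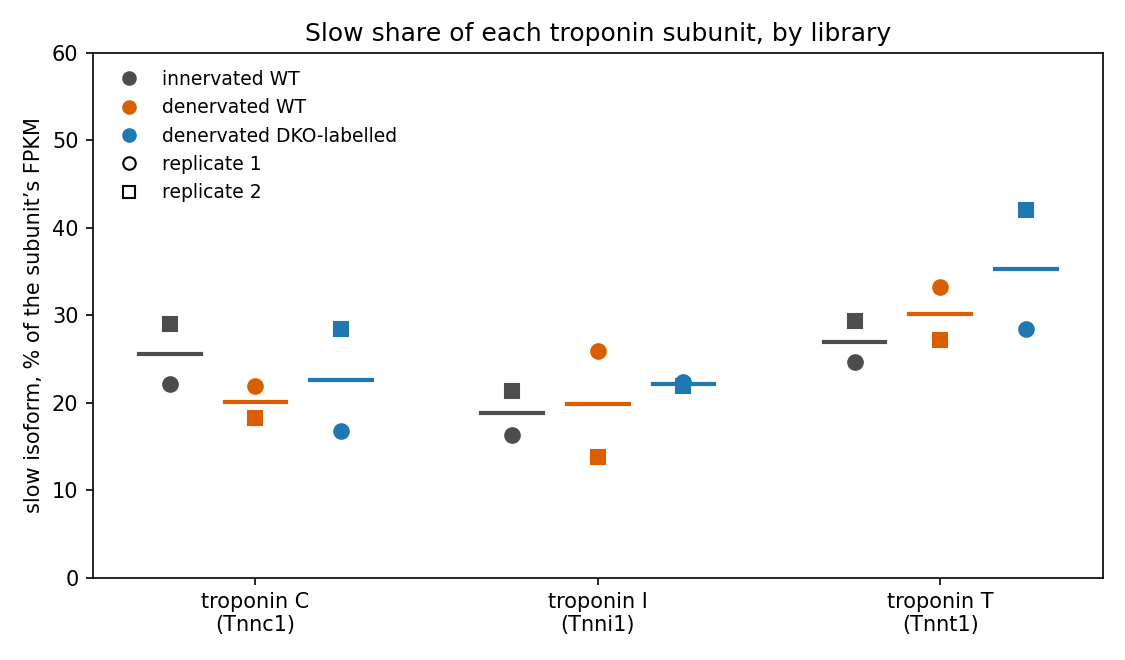
Percentage of each subunit's FPKM that came from its slow gene (Tnnc1 of troponin C, Tnni1 of troponin I, Tnnt1 of all troponin T including Tnnt2); circles and squares are replicates 1 and 2, bars are group means. The slow share of troponin I ranged from 13.8% to 25.9% between the 2 denervated WT libraries, which is wider than the gap between any group means of this subunit.

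Troponin C per troponin T was lower after denervation in both the slow and the fast class, and the troponin I ratios overlapped between innervated and denervated WT. These ratios were chosen after the values were seen. Within the slow class, Tnnc1 to Tnnt1 was 0.934 and 1.16 in the innervated WT pair, 0.504 and 0.582 in the denervated WT pair, and 0.437 and 0.489 in the DKO-labelled libraries. No groups overlapped, and the log2 difference with denervation in WT was -0.94, with -0.89 and -1.0 within the 2 runs. Within the fast class, Tnnc2 to Tnnt3 went from 1.08 and 1.18 to 0.915 and 0.988 in denervated WT and to 0.867 and 0.903 in the DKO-labelled group, a log2 difference of -0.24 in WT. Tnni2 to Tnnt3 was 0.829 and 0.895, 0.87 and 0.926, and 0.717 and 0.856, and Tnni1 to Tnnt1 was 0.492 and 0.586, 0.599 and 0.39, and 0.517 and 0.327.

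**Figure D4:**
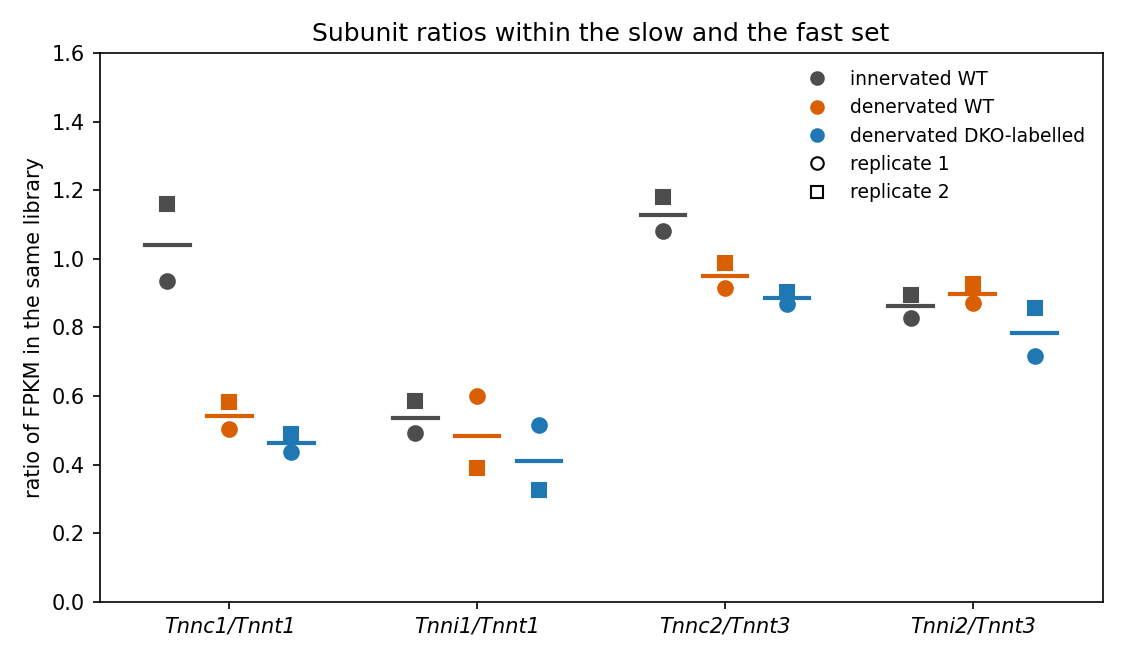
Ratio of FPKM within each library for subunit pairs of the slow set (Tnnc1/Tnnt1, Tnni1/Tnnt1) and the fast set (Tnnc2/Tnnt3, Tnni2/Tnnt3); circles and squares are replicates 1 and 2, bars are geometric means. Troponin C per troponin T was lower after denervation in both sets, from 0.934 and 1.16 to 0.504 and 0.582 in the slow set.

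The other thin filament genes, a list of 25 that includes tropomyosins, actins, nebulin, tropomodulins, leiomodins and capping proteins, had 20 tested members. With denervation in WT 9 were lower, 0 higher and 11 not called, with a median log2 change of -0.82, while the median of all tested genes was 0 and 14.3% of them were called lower and 14.4% higher. Of the 4 tropomyosins, 3 fell: Tpm2 by 1.8 on the log2 scale (-1.8 ± 0.24, edgeR adjusted p = 0.0059), Tpm3 by 1.40 and Tpm1 by 1.19. Tpm4, at -0.70 ± 0.26, did not pass the test (edgeR adjusted p = 0.0903). Tropomyosin is the partner that troponin T holds. Tpm1 was at 4664.5 and 5229.6 FPKM in the innervated WT pair, 2182.2 and 2003.2 in the denervated WT pair and 1518.6 and 1267 in the DKO-labelled libraries. Ldb3, a Z-disc protein, had a log2 change of -2.0, Lmod1, an actin filament nucleator, of -1.62, and Tmod4, which caps the slow end of the filament, of -1.17. Lmod1 was low, at 0.283 to 1.82 FPKM over the 6 libraries. Nebulin (Neb), the ruler along the thin filament, had -0.15 ± 0.27 (edgeR adjusted p = 0.699). The count of 9 fell when either innervated WT library was left out and rose without denervated WT replicate 1, and the calls over all genes did the same. Skeletal alpha-actin (Acta1) was listed at 0 in all 6 libraries and could not be used.

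In DKO-labelled against denervated WT, none of the 20 was called with edgeR, 1 was called with DESeq2, and the median was -0.06 against -0.02 for all genes. Against innervated WT the DKO-labelled libraries had 8 lower and 1 higher, with a median of -0.66, while 16.2% of all tested genes were called lower and 15.2% higher. The largest were Actc1, cardiac alpha-actin, at -3.83, Tpm2 at -2.03, Tpm3 at -2.02, Lmod1 at -1.93, Tpm1 at -1.8 and Lmod3, a leiomodin of striated muscle, at -1.59. The higher gene was Tmod1, a pointed-end capping protein, at 1.08 (edgeR adjusted p = 0.0265). That count of 9 moved as single libraries were left out, and so did the calls over all genes.

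The myosin heavy chains of the same fibres give a second measure of class. With denervation in WT, slow Myh7 changed by -2.32 ± 0.66 on the log2 scale (edgeR adjusted p = 0.0423) and fast Myh2 by -2.09 ± 0.54 (adjusted p = 0.0328). Fast Myh1 at -1.04 and Myh4 at -1.31 did not pass the test. Myh4 differed widely between libraries of the same group, at 38.5 and 290.6 FPKM in innervated WT and 132.8 and 11.1 in the DKO-labelled group. Embryonic Myh3 overlapped between the groups (1.19 ± 0.93), and perinatal Myh8 had a log2 change of -1.72 (edgeR adjusted p = 0.0498).

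Tnnt2 was set beside 7 genes of developing or regenerating fibres, of which 4 rose, 1 fell and 2 were not called with denervation in WT, with a median log2 change of 3.11, against 14.4% higher and 14.3% lower among all tested genes. Their summed FPKM was 56.9 to 111.4 in innervated WT, 606 to 621.3 in denervated WT and 559.5 to 616.7 in the DKO-labelled group. Chrng, the fetal acetylcholine receptor subunit, was at 1.83 and 0.775 FPKM, then 198 and 63.5, then 202.7 and 190.7. Myog, a muscle differentiation factor, was at 8.02 and 7.32, then 124 and 417.7, then 212.2 and 327.9. The log2 differences of these 2 genes between DKO-labelled and denervated WT, 0.65 ± 0.54 and 0.03 ± 0.53, did not pass the test. The other 5 genes of the list had negative differences, of which none passed, with Tmem8c at -1.16 ± 0.94, Myh3 at -0.88 ± 0.92, Ncam1 at -0.23 ± 0.38 and Myh8 at -0.14 ± 0.51. Myl4, the embryonic and atrial light chain, was at 51 and 14.8, then 121.4 and 81.1, then 59.3 and 47.7 FPKM. Its pattern came closest to that of Tnnt2 in this list, and its genotype difference of -0.90 ± 0.53 did not pass the test (edgeR adjusted p = 0.954).

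**Figure D5:**
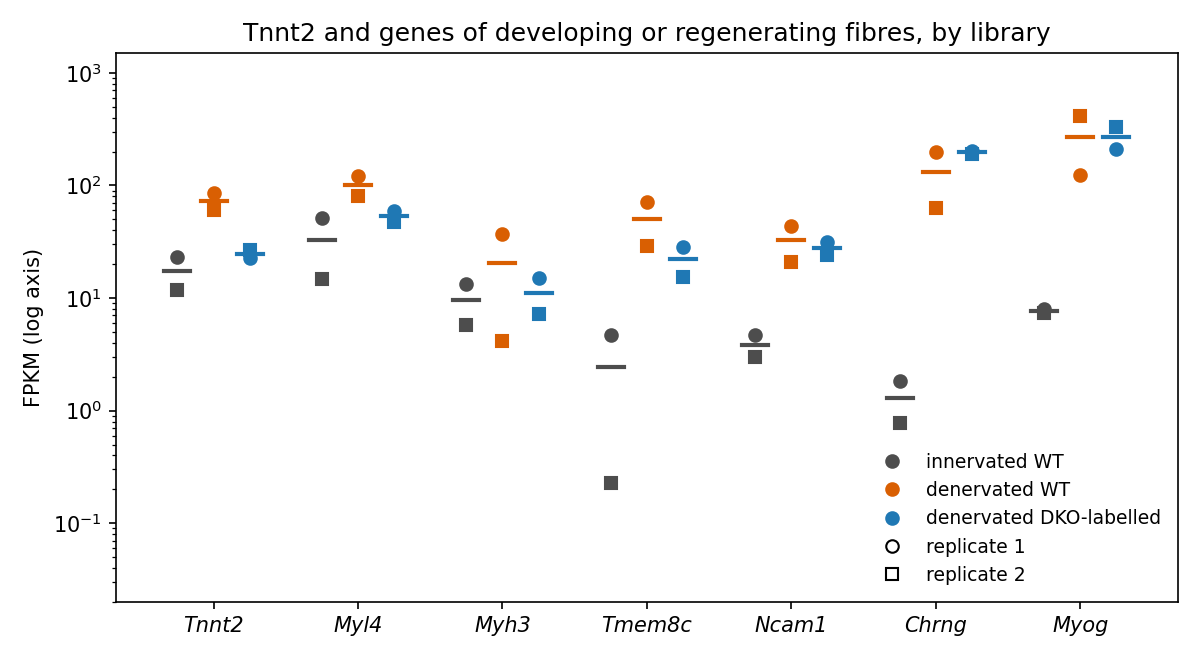
FPKM (log axis) of Tnnt2 and of 6 genes of developing or regenerating fibres in each library; circles and squares are replicates 1 and 2, bars are group means. Chrng, Ncam1, Myog and Tmem8c lay above innervated WT in all 4 denervated libraries. Tnnt2 and Myl4 did so in denervated WT and overlapped innervated WT in the DKO-labelled group. Myh3 overlapped between the groups, and Myh8, the gene of the list that fell with denervation in WT, is not plotted.

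Genes with the pattern most like a member were ranked over the 6 libraries by the root mean square difference of centred log2 CPM, as a description. Tnnc1 was closest to Myl3 (0.166 log2 units), the slow ventricular light chain, then to Dusp8 and Nmb. Tnnc2 was closest to Akap1, Oat and 9630033F20Rik, and Tnni2 and Tnnt3 came 42nd and 43rd for it. Tnni2 was closest to Synpo2, BC002163 and D10Jhu81e with Tnnt3 in place 9, and Tnnt3 to Mfn2, Actg1 and Mif4gd with Tnni2 in place 23. Tnnt1 was closest to Ivd, C1qtnf4 and Hist1h4b. The best place of a slow member for another slow member was 674 (Tnnt1 for Tnni1). Tnnt2 was closest to 2900079G21Rik (0.283), Stra6 and Myl4 (0.393), and all 6 other members lay at place 9495 or beyond for it.

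Of 21 regulators of fibre type and muscle genes, 4 were called higher and 3 lower with denervation in WT, and 14 were not called, shares close to those of all tested genes (14.4% higher and 14.3% lower). The higher ones were Myod1 (4.0 on the log2 scale), Myf6 (3.38), Tead4 (2.64) and Gtf2ird1 (0.68), a repressor studied on slow troponin I. MyoD family and TEAD factors bind the motif kinds shown above. Of the same families in this list, Myf5 (0.23) and Tead1 (-0.72) were not called. A link between these factors and the troponin changes was not tested. Myod1 was at 7.71 and 4.38 FPKM in the innervated WT pair, 55.2 and 127.4 in the denervated WT pair and 113.5 and 120.3 in the DKO-labelled libraries. Tead4 was at 3.44 and 3.41, then 15.8 and 24.1, then 17.8 and 19.7. The lower ones were Vgll2 (-2.75), a TEAD cofactor, Ppargc1a (-1.95), a driver of oxidative fibres, and Srf (-0.91). Between DKO-labelled and denervated WT none of the 21 was called with edgeR. Against innervated WT the DKO-labelled libraries had 3 higher, 4 lower and 14 not called, where 15.2% of all tested genes were called higher and 16.2% lower.

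Genes beside the members gave mixed values. Phlda3, below Tnni1 on chromosome 1, was at 126.8 and 93.7 FPKM in the innervated WT pair, 84.1 and 95.8 in the denervated WT pair and 39.6 and 28 in the DKO-labelled libraries. Its genotype difference of -1.34 ± 0.23 had an unadjusted p of 0.000919 and an adjusted p of 0.213 with edgeR. Lad1, between Tnni1 and Tnnt2, was at most at 0.191 FPKM in any library. Snx21, next to Tnnc2, changed by -0.57 with denervation in WT (edgeR adjusted p = 0.0484), and Gm14492, listed at the Tnnt3 locus, by -1.79 (adjusted p = 0.00468).

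Markers of other cells also moved with denervation in WT, and their part in the troponin differences was not tested. The counts called stand against 14.3% lower and 14.4% higher among all tested genes. Endothelial markers (4 of 4 called lower) summed to 76.9 to 85.9 FPKM in innervated and 33.5 to 39.3 in denervated WT. Schwann cell markers (2 of 4 lower) went from 50.9 to 52.2 down to 21.6 to 21.7, fibroblast markers (1 of 4 lower) from 496.1 to 671.7 down to 283 to 397.4, and smooth muscle markers (3 of 3 tested lower) from 59.5 to 65.2 down to 22.6 to 27.4. Macrophage markers (1 of 5 higher) were at 23.8 to 36 and at 50.8 to 54.6, and satellite cell markers (1 of 4 tested higher) at 11 to 11.1 and at 14.4 to 17.9. Between DKO-labelled and denervated WT no gene of these lists was called with edgeR.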

How the data were processed

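RNA from 6 mouse soleus libraries was read from 6 deposited tables and grouped by sample title. The submitters' processing notes list TopHat2 2.0.3, Bowtie2 2.0.0.7, Cuffdiff 2.0.2, Trim Galore 0.2.1 and CASAVA 1.8.2, with mm9 as the build and no roles. The annotation is not given in the sources used here, nor is strandedness. The authors gave FPKM, per the file headers, a level per transcript length and library. A signal of externally scaled fragments stands beside it per the file headers and was only read to check library factors. The last column holds raw fragments, per the file headers, which are estimated counts, 88.4% to 89.0% whole within 1e-06. Every gene stands 3 times in 65415 lines, and 21805 entries and 21572 symbols remained.

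Estimated counts were rounded and tested with edgeR 4.0.16 (quasi-likelihood, TMM scaling, all 6 libraries in 1 fit, R 4.3.3) for the 12247 genes of mean FPKM of at least 0.5. A call needed a two-sided p under 0.05 after Benjamini-Hochberg adjustment over all genes tested. The fit was tested on simulated data. It left 3 residual degrees of freedom, with a coefficient of biological variation of 0.222. Between libraries, FPKM scaling and TMM differed by at most 4.43%. The 2 libraries of each group differed beyond counting noise (chi-square per degree of freedom 31.6, 163.4 and 64.7). Alternatives were DESeq2 1.42.0, limma 3.58.1 on log2(FPKM + 0.5), other scalings, filters and pseudocounts, the run of sample numbers as a block, and each library left out. Groups do not overlap where both FPKM values of 1 group lie above both of the other. The share of all genes with groups apart was counted only between the genotypes after denervation. A separation in the other comparisons, or of all 3 groups, therefore has no such share beside it. Ratios are of FPKM, as differences of mean log2 values. Changes of single genes within a run of sample numbers are log2 differences of FPKM and not edgeR estimates.

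Named were all members, Tnni3, genes beside members, called genes of the lists with the largest changes, the 3 genes nearest each member in pattern (not reported here for Tnni1), and fibre-type genes. Neb, Tpm1 levels and the genes plotted beside Tnnt2 were chosen after their values were seen. The members and lists were chosen with earlier results of these data known.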

Additional observations from a re-analysis of the deposited data

How the results depend on the processing

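Fold changes and counts of calls were recomputed under 17 alternatives, single ratios under 8 and the ratio of sums under 9. Shares and pattern ranks were not recomputed. Leaving out an innervated WT library lowered the calls over all genes as well as those of members in both comparisons with innervated WT. For denervated against innervated WT, 5 called members became 1 (Tnnt2) with limma on quantile-normalized FPKM, where the log2 changes of Tnni2 and Tnnt3 turned to 0.0 and 0.06, and ranged from 0 to 6 with single libraries left out. The fast members rank among the highest genes, whose values quantile normalization sets equal. Library totals alone moved the median of all genes by 0.267. For DKO-labelled against denervated WT, DESeq2 called 1 member in place of 0. For DKO-labelled against innervated WT, 4 called members ranged from 1 to 5 with libraries left out. The thin filament count ranged from 0 to 14 with denervation in WT (9 in the fit reported). Against innervated WT it ranged from 3 to 14 with libraries left out and was 14 with only the 4 libraries compared. Between the genotypes DESeq2 called 1.

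Log2 slow-to-fast ratios within the first and second run of sample numbers were as follows, and the cause of the difference between runs was not tested. For denervated against innervated WT they were -0.03 and -0.87 (troponin C), 0.84 and -0.76 (troponin I), 0.62 and -0.13 (troponin T) and 0.48 and -0.53 (sums). For DKO-labelled against denervated WT they were -0.47 and 0.83 (troponin C), -0.35 and 0.95 (troponin T) and -0.34 and 0.91 (sums). For DKO-labelled against innervated WT, troponin I gave 0.56 and 0.04. The troponin I ratio between the genotypes ranged from -0.3 to 0.83 with a denervated WT library left out. The labels give no replicate numbers. The run of sample numbers as a block left the called members of the WT comparison at 5. The number of calls between the genotypes also moved with the test: edgeR called 5 genes, DESeq2 181 and edgeR without denervated WT replicate 1 119. Quantile normalization with limma called 14 higher and 16 lower there, against 3 and 2.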
